A study of Rattus norvegicus with 6 samples.

Results

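The MCM helicase genes Mcm2, Mcm3, Mcm4, Mcm5, Mcm6 and Mcm7, the GINS genes Gins1 and Gins2, the sliding clamp gene Pcna and the transcription factor gene E2f1 were followed in the renal cortex of rats, the part of the kidney that holds the glomeruli and most proximal tubules. These 10 genes were taken by name, and they were put together because several of them had lower values with phenolphthalein in these same arrays, so their differences between the groups are a description and carry no test. Probes of the array were matched to genes through RefSeq accessions. Of the 10 genes, 9 had a matching probe, with 22 probes in all and at most 4 for 1 gene, among 15284 genes named on the array. Mcm5 was the gene with no matched probe and has no value here. All 9 passed the filter on dim probes, which asked for a detected spot (well above background) on 3 or more of the 6 arrays, as did 12269 named genes in total.

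The samples were 6 male Sprague-Dawley (Crl:CD(SD)) rats bought at 5 weeks of age. In the vehicle group, 3 rats received corn oil for 4 weeks, and in the phenolphthalein group, 3 rats received phenolphthalein, a dye formerly sold as a laxative, at 1000 mg/kg/day for 4 weeks. Every rat gave 1 array of Cy3-labelled RNA of whole cortex, so fewer cells of a type and less RNA per cell cannot be told apart. Markers of the tissue were detected. The proximal tubule phosphate transporter Slc34a1 stood at 7.99 ± 0.06 in vehicle and Umod, the uromodulin gene of the thick ascending limb, at 8.76 ± 0.07 (log2 relative to the 75th percentile of the array, SD, n = 3).

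A cell that is to copy its DNA first loads MCM rings onto origins, a step called licensing that the origin recognition complex, Cdc6 and Cdt1 carry out. The rings become active helicases when Cdc45 and the GINS complex join them, and PCNA then holds the polymerases on the template. E2F1, released from the Rb protein in late G1, drives transcription of many of these genes. In the adult kidney few tubule cells divide at any time, and the transcripts of these genes are known as markers of cycling cells.

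The promoters are shown because E2F proteins are known to act through a short element in this family. In windows of 300 bases (250 before and 50 after the gene start, RefSeq, GRCr8 build), an E2F-type element was searched as TTTCCCGC, TTTCGCGC, TTTGCCGC or TTTGGCGC on both strands. Of the 10 members, 8 had a window, and 6 of these 8 held the element, against 2.14% of all 33469 windows. Other replication genes held it too, in 6 of 10 windows of the other licensing genes, 6 of 13 of helicase activation and 13 of 30 of fork factors, while mitosis genes held it in 1 of 24. The stretches nearest the start in those 6 genes follow, written 5′ to 3′ on the gene's strand with the element in capitals.
Mcm2, chr4:122918095-122918133, minus strand: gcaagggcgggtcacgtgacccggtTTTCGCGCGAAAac
Mcm3, chr9:30733745-30733777, minus strand: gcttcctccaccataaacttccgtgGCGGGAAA
Mcm5, chr19:13488780-13488812, plus strand: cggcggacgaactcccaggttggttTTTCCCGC
Mcm6, chr13:42404455-42404516, minus strand: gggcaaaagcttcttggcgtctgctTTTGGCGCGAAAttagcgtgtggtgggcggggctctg
Mcm7, chr12:22163198-22163255, minus strand: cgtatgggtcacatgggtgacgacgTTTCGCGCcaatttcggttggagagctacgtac
Gins1, chr3:160184870-160184919, plus strand: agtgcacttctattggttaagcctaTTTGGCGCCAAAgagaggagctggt
In Mcm2, Mcm6 and Gins1 the element matched on both strands at overlapping positions, which gives the palindromes in capitals in Mcm2 and Gins1 and a near-palindrome in Mcm6. Its matches began at -14 and -10 in Mcm2, at -139 and -135 in Mcm6 and at -25 and -21 in Gins1, counted from the gene start. In Mcm3 the element ran from -6 to 2, across the annotated start. Mcm5 held, besides the printed match, a pair of overlapping matches further upstream, at -213 and -209. Matches that are not printed also began at 14 in Mcm3 and at -233 in Mcm7. In Mcm7 the last base of the element at -52 was the first base of a CCAAT box. CCAAT, the element of the factor NF-Y, was present in 7 of the 8 windows and in 37.5% of all windows. It was also in 17 of 24 windows of mitosis genes, 16 of 30 of fork factors and 5 of 10 of the other licensing genes. Helicase activation genes held it in 5 of 13, nucleotide supply genes in 2 of 7 and E2F, Rb and G1/S genes in 6 of 17. The windows of Gins2 and Pcna held CCAAT without the E2F-type letters.

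**Figure D1:**
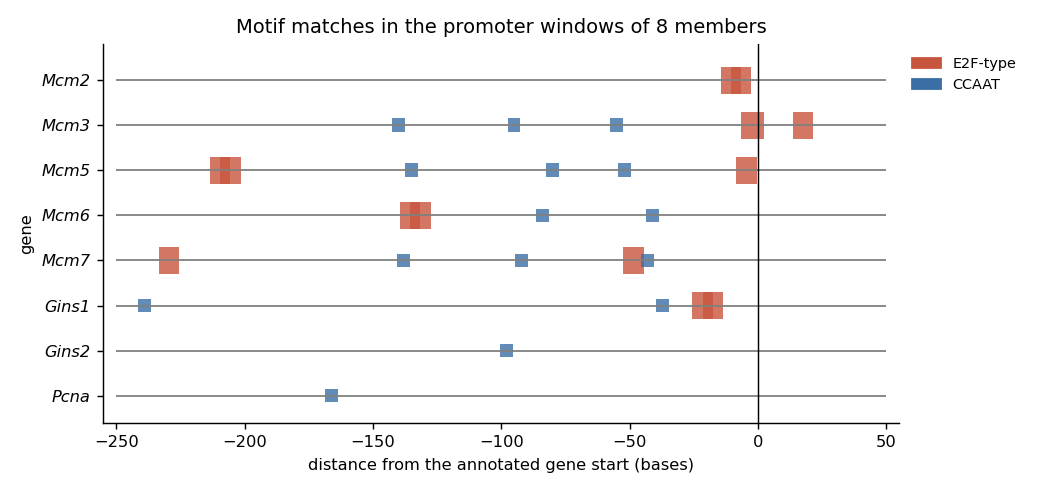
Positions of E2F-type matches (red) and CCAAT matches (blue) in the promoter windows of 8 members; the horizontal axis is the distance in bases from the annotated gene start, marked by a vertical line. The E2F-type matches lie in 6 windows, and Gins2 and Pcna have CCAAT matches alone.

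Mcm3, Gins1 and E2f1 had lower values on every phenolphthalein array than on any vehicle array, and Mcm2, Mcm4, Mcm6, Mcm7, Gins2 and Pcna had overlapping groups. The value is the log2 signal relative to the 75th percentile of the array, taken for each gene from its probe with the highest mean. By that probe 8 of the 9 genes had a difference below 0, with a median of -0.14, and the groups of 3 of the 9 did not overlap on the lower side. Over all 34417 genes and unnamed probes tested, 54.2% had a difference below 0, the median was -0.016, and 9.11% had groups that did not overlap on the lower side. The members were chosen from this contrast, so nothing is read from their counts. With phenolphthalein, 0% of all items were called lower and 0% higher (limma, adjusted p below 0.05; smallest adjusted p = 0.307), and 4.96% were lower and 3.91% higher at an unadjusted p under 0.05.

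Among the ring subunits, Mcm3 had the largest difference. Its values were -0.40, -0.22 and -0.36 in vehicle replicates 1, 2 and 3 and -0.999, -0.56 and -0.91 in phenolphthalein replicates 1, 2 and 3. All 3 treated arrays lay below the lowest vehicle array, by 0.15 at the closest point, and phenolphthalein replicate 2 was the one nearest to vehicle. The difference was -0.49 (SE 0.13), a change of -29.0% in signal. All 4 Mcm3 probes had lower values, at -0.49, -0.69, -0.50 and -0.39 from the brightest to the dimmest. The groups were apart by 3 of these probes and overlapped by the dimmest, which was clearly over background on 2 of the 3 vehicle arrays.

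Mcm6 had the next difference among the ring subunits, and 1 probe. It stood at -3.55, -3.60 and -3.13 in vehicle and at -4.04, -3.54 and -3.75 in phenolphthalein, a difference of -0.35 (SE 0.19). The groups overlapped, because phenolphthalein replicate 2 lay just above vehicle replicates 1 and 2. Vehicle replicate 3 was the highest array. Without that array the difference was -0.21, and without phenolphthalein replicate 1, the lowest array, it was -0.22. With normexp background correction it was also -0.22.

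Mcm2 and Mcm4 differed by less than the spread of the treated arrays. Mcm2 stood at -0.74, -0.76 and -0.88 in vehicle and at -1.19, -0.89 and -0.74 in phenolphthalein, a difference of -0.14 (SE 0.13). Phenolphthalein replicate 1 lay well below the vehicle range, replicate 2 at its lower edge and replicate 3 at its upper edge. Without replicate 1 the difference was -0.017 and without replicate 3 it was -0.24. The other probes of Mcm2 gave -0.13 and -0.056. Mcm4 stood at -0.47, -0.31 and -0.34 in vehicle and at -0.70, -0.39 and -0.41 in phenolphthalein, a difference of -0.13 (SE 0.11). Here too phenolphthalein replicate 1 was the lowest, and without it the difference was -0.031. One dimmer Mcm4 probe gave -0.67 with groups apart, resting largely on phenolphthalein replicate 3 at -5.66, while the other dim probes gave -0.11 each. The median over the probes of Mcm4, taken on each array, differed by -0.39. On each array that median lay midway between the probe at -0.67 and a probe at -0.11.

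Mcm7 was level between the groups. It stood at 1.60, 1.59 and 1.63 in vehicle and at 1.49, 1.72 and 1.60 in phenolphthalein, a difference of -0.0020 (SE 0.076). The sign turned with normexp background correction (0.024), quantile normalization (0.0026) and median centring (0.0052). Its other probe differed by -0.083 (SE 0.12) and also overlapped. Mcm3 and Mcm7 proteins sit in the same ring, and both promoters hold the E2F-type element shown above.

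**Figure D2:**
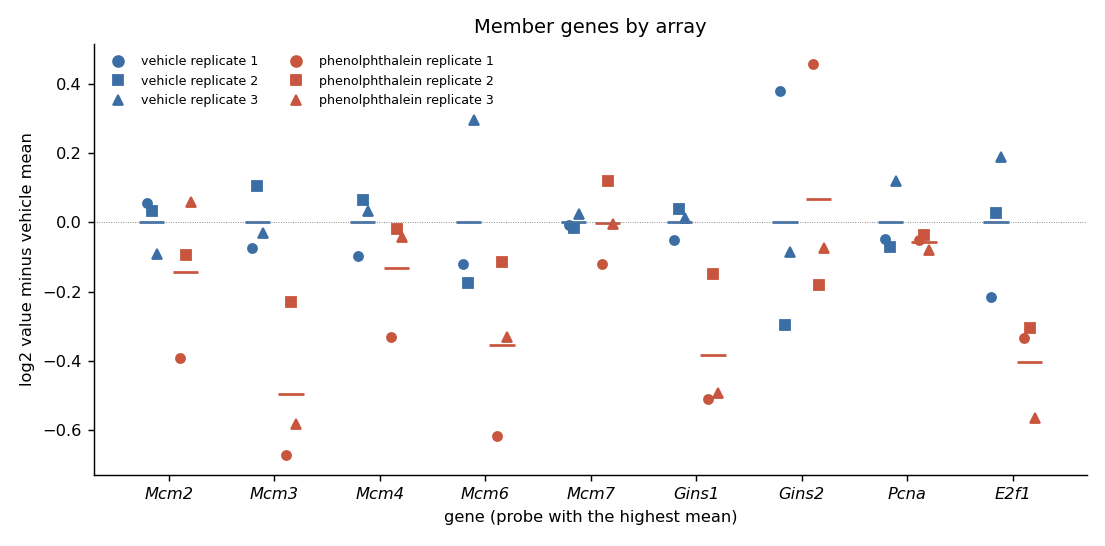
Log2 value of each member gene on every array, minus the mean of the vehicle arrays of that gene (vertical axis), for the probe with the highest mean; blue is vehicle, red is phenolphthalein, marker shapes give the replicate and short lines the group means. Red points lie below all blue points in Mcm3, Gins1 and E2f1 and mix with them in the other 6 genes.

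The GINS complex binds the loaded ring during origin firing. Gins1 stood at -2.49, -2.40 and -2.42 in vehicle and at -2.95, -2.58 and -2.93 in phenolphthalein. The vehicle arrays lay close together and the treated arrays below them, with phenolphthalein replicate 2 again nearest, 0.097 below the lowest vehicle array. The difference was -0.38 (SE 0.13), a change of -23.3%, and it lay between -0.50 and -0.32 with any 1 array left out. Gins2 stood at -4.48, -5.15 and -4.94 in vehicle and at -4.40, -5.04 and -4.93 in phenolphthalein, a difference of 0.067 (SE 0.26). Its groups covered nearly the same range, and the sign turned without vehicle replicate 2 (-0.080) or without phenolphthalein replicate 1 (-0.13). Gins2 was dim, yet well above background on all 6 arrays.

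Pcna, which also serves DNA repair, was nearly level. It stood at 1.68, 1.65 and 1.84 in vehicle and at 1.67, 1.69 and 1.65 in phenolphthalein, a difference of -0.055 (SE 0.071). Vehicle replicate 3 alone was high, and without it the difference was 0.0042. The second Pcna probe gave -0.051 (SE 0.063), and its groups did not overlap by a margin of 0.0039, far below that standard error.

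E2f1 had lower values by 3 of its 4 probes. The brightest stood at -1.67, -1.43 and -1.27 in vehicle and at -1.79, -1.76 and -2.02 in phenolphthalein, a difference of -0.40 (SE 0.13) or a change of -24.3%. Vehicle replicate 1 came closest to the treated arrays, 0.091 above the highest of them. The second probe gave -0.55 (SE 0.13) with groups 0.28 apart, and the third gave -0.62 (SE 0.32). The dimmest probe went the other way, at 1.18 (SE 0.57). Its spot was detected well above background on 1 array of vehicle and on all 3 of phenolphthalein, its vehicle values ran from -7.41 to -5.94, and its treated values ran from -5.91 to -4.28. The 4 probes of E2f1 therefore do not give 1 direction, and the higher one comes from a probe not well above background on most vehicle arrays.

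**Figure D3:**
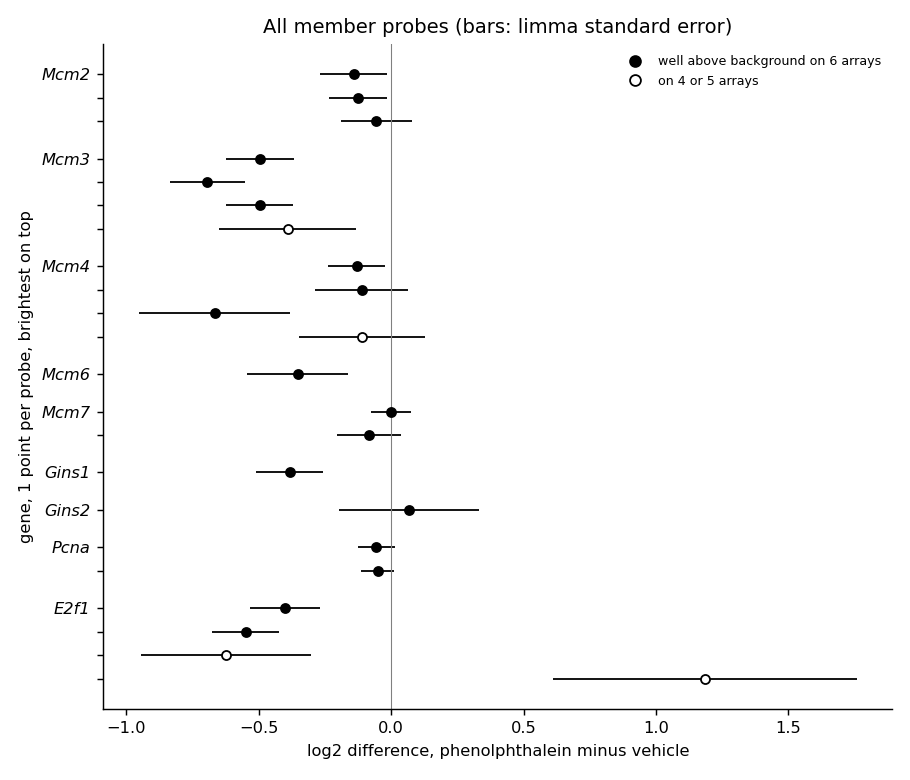
Log2 difference, phenolphthalein minus vehicle, of all 22 member probes, 1 point per probe with its limma standard error, ordered within a gene from the brightest down; open points were well above background on 4 or 5 arrays. Of the 22 points, 20 lie below 0, and the E2f1 probe at 1.18 and the single Gins2 probe lie above it.

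Over all probes, 20 of the 22 had a difference below 0 with a median of -0.14, and 9 had groups apart on the lower side and 1 on the higher. Of all 43473 probes tested singly, 53.5% were below 0 and 8.98% had groups apart on the lower side. Probes of 1 gene share their transcripts and are not separate evidence.

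The treated arrays did not contribute evenly. The member score, the mean over the 9 genes of the value minus the vehicle mean of the gene, was -0.020, -0.032 and 0.052 in vehicle and -0.29, -0.11 and -0.23 in phenolphthalein. Phenolphthalein replicate 1 held the lowest value of 6 of the 9 genes and replicate 3 that of 2. Replicate 2 of that group held none. Each treated array was the highest for 1 gene, replicate 1 for Gins2, replicate 2 for Mcm7 and replicate 3 for Mcm2. The arrays lay on 3 slides. The vehicle arrays were together on 1 slide, phenolphthalein replicate 1 was alone on a slide, and replicates 2 and 3 of that group were side by side on the remaining one. The scan dates split the arrays in the same way. The vehicle group cannot be told apart from its slide or its scan date. In a fit that took the slide as a random block, the differences were -0.50 for Mcm3, -0.39 for Gins1 and -0.40 for E2f1. No slide held arrays of both groups, so this fit cannot separate a slide effect from the treatment. On the slide shared by phenolphthalein replicates 2 and 3, replicate 2 stood above replicate 3 by 0.35 in Mcm3 and by 0.34 in Gins1.

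The other genes of licensing had values on both sides of 0. Of 13 listed genes of origin recognition and licensing, 11 were tested, of which 6 had lower and 5 higher values with a median of -0.025. None passed the threshold over all items (0 lower and 0 higher, limma), and at an unadjusted p under 0.05 there were 0 lower and 2 higher. These 2 were Mcm8, a helicase related to the ring subunits that acts in recombination repair, and Mcm10, an initiation factor outside the ring. Mcm8 stood at -3.23, -3.45 and -3.13 in vehicle and at -2.80, -2.42 and -2.50 in phenolphthalein, which differ by 0.69 (SE 0.15, limma adjusted p = 0.434). Neither of its 2 probes was lower. Its groups did not overlap, in the direction opposite to Mcm3, and 6.59% of all items had groups apart on the higher side. Mcm10 differed by 0.40 (SE 0.16, limma adjusted p = 0.555) and the origin recognition subunit Orc6 by 0.39 (SE 0.19, limma adjusted p = 0.624). Cdc6, which loads the ring, differed by -0.48 (SE 0.34, limma adjusted p = 0.711). The probes of Cdc6 disagreed, and their median gave 0.083. With normexp background correction Mcm8 differed by 0.43, Mcm10 by 0.22 and Cdc6 by -0.10, and without phenolphthalein replicate 3 Cdc6 differed by -0.14.

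Genes that turn the loaded ring into a working helicase were also near 0. Of 14 listed, 11 were tested, with 6 lower, 5 higher and a median of -0.018, and 0 passed the threshold (limma; 0 lower and 1 higher at an unadjusted p under 0.05). The GINS subunit Gins4 differed by -0.19 (SE 0.12), and Timeless, a fork protection factor, by -0.21 (SE 0.13). Its partner Tipin differed by 0.20 (SE 0.083), with groups that did not overlap. Wdhd1, which links the helicase to DNA polymerase alpha, differed by 0.20 (SE 0.25), and by 0.036 with normexp background correction. Without phenolphthalein replicate 1, Gins4 differed by -0.091 and Timeless by -0.093.

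Factors that work at the fork had more lower values. Of 29 listed genes 25 were tested. Values were lower for 19, with a median of -0.13, against 54.2% of all items below 0. Of the 25, 0 passed the threshold (limma), and 3 were lower and 0 higher at an unadjusted p under 0.05. Over all items those unadjusted shares were 4.96% lower and 3.91% higher. Pola1, the catalytic subunit of DNA polymerase alpha, stood at -2.98, -2.82 and -2.80 in vehicle and at -3.19, -3.40 and -3.19 in phenolphthalein. All treated arrays lay below vehicle, and the difference was -0.40 (SE 0.12, limma adjusted p = 0.493). The primase subunit Prim2 differed by -1.05 (SE 0.35, limma adjusted p = 0.508) with overlapping groups, since phenolphthalein replicate 2 lay at 1.51 and vehicle replicate 2 at 1.47. The chromatin assembly gene Chaf1b differed by -0.27 (SE 0.11), and the clamp loader subunit Rfc2, which places PCNA on DNA, by -0.19 (SE 0.085). Without phenolphthalein replicate 1 the median of the list was -0.083 and Chaf1b differed by -0.16. With normexp background correction Pola1 differed by -0.23.

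Of 8 genes of nucleotide supply 7 were tested, 5 of them with lower values; the median was -0.18. None passed the threshold (0 of 7, limma), and 1 was lower and 0 were higher at an unadjusted p under 0.05. Of all items, 54.2% were below 0, and 4.96% were lower at that unadjusted p. Rrm2, the S-phase subunit of ribonucleotide reductase, stood at 0.91, 1.01 and 1.45 in vehicle and at 0.66, 0.86 and 0.78 in phenolphthalein. The difference was -0.36 (SE 0.15, limma adjusted p = 0.557), all 4 of its probes were lower, and vehicle replicate 3 was well above the other vehicle arrays. The deaminase Dctd differed by -0.34 (SE 0.20) and Rrm1 by -0.18 (SE 0.11). The median over the probes of Rrm1 gave 0.036. Without vehicle replicate 3 the median of the list was -0.093, and Rrm2 differed by -0.19, Dctd by -0.20 and Rrm1 by -0.093.

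The E2F and Rb families and the G1/S cyclins and kinases were spread around 0. Of 26 listed 22 were tested, 13 with lower and 9 with higher values and a median of -0.012, and 0 passed the threshold (limma; 0 lower and 1 higher at an unadjusted p under 0.05). Cdk2, the kinase of S-phase entry, differed by 0.20 (SE 0.080), and Cdk6 by -0.25 (SE 0.12). The Rb relative Rbl1 differed by 0.44 (SE 0.29). The inhibitor Cdkn1a, a p53 target, differed by -0.18 (SE 0.096), while the median over its 3 probes gave 0.57. With normexp background correction Cdk2 differed by 0.078 and Rbl1 by 0.14.

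Mitosis and G2/M genes had the lowest median of these lists. Of 28 listed 24 were tested, 22 of them with lower values; the median was -0.27. None passed the threshold (0 of 24, limma), and 2 were lower and 0 higher at an unadjusted p under 0.05. Of all items, 54.2% were below 0, and 4.96% were lower at that unadjusted p. Nusap1, a spindle microtubule protein, stood at -1.38, -1.11 and -0.86 in vehicle and at -1.81, -1.49 and -1.74 in phenolphthalein, a difference of -0.56 (SE 0.16, limma adjusted p = 0.472). Its groups did not overlap, though vehicle replicate 1 lay close to phenolphthalein replicate 2. The kinetochore gene Ndc80 differed by -0.46 (SE 0.18), the spindle assembly factor Tpx2 by -0.36 (SE 0.16) and the checkpoint kinase Bub1 by -0.30 (SE 0.14). Without vehicle replicate 3 the median of the list was -0.098, and Tpx2 differed by -0.24 and Bub1 by -0.17.

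**Figure D4:**
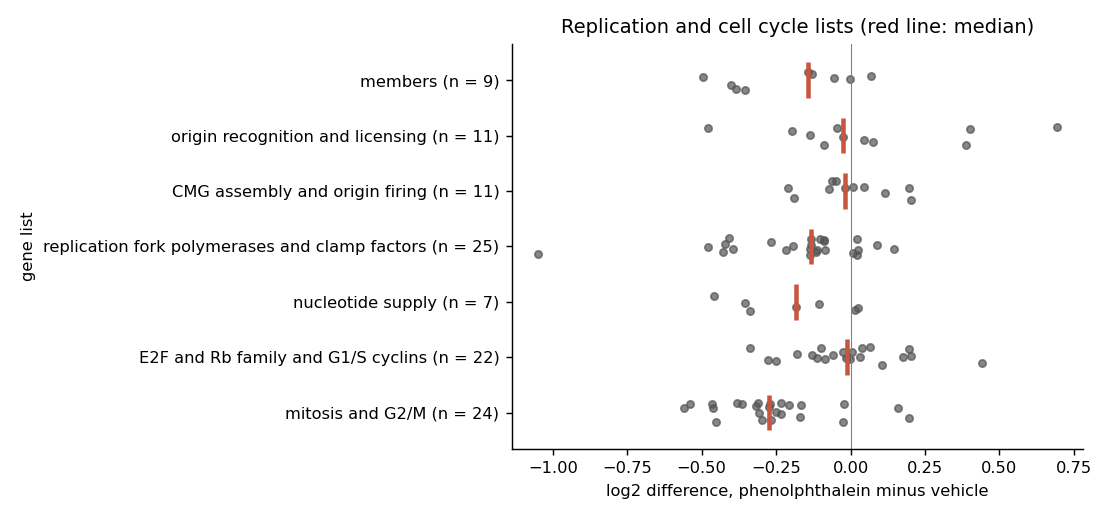
Log2 difference, phenolphthalein minus vehicle, of each tested gene in the members and in 6 replication and cell cycle lists; each point is a gene and the red line is the median of the list. Medians run from -0.27 for mitosis and G2/M to -0.012 for the E2F and Rb families and G1/S cyclins.

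The per-array scores of these lists had different orders. The mitosis score was -0.18, -0.13 and 0.31 in vehicle and -0.32, -0.038 and -0.42 in phenolphthalein, so its groups overlapped and vehicle replicate 3 stood high. The fork score was -0.0099, -0.036 and 0.046 in vehicle and -0.21, -0.097 and -0.25 in phenolphthalein, with the groups apart. In the members, the fork factors and the mitosis genes alike, the highest vehicle array was replicate 3 and the highest treated array was replicate 2.

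Markers of leukocytes, which can also divide, were lower in the same treated arrays. All 19 tested markers of T, NK and B cells were on the lower side (median -0.55). With normexp background correction that median was -0.28. Their score was -0.091, 0.29 and -0.20 in vehicle and -0.69, -0.36 and -0.43 in phenolphthalein. Among macrophage and monocyte markers, 14 of 17 tested were on the lower side (median -0.43), with scores of -0.13, 0.19 and -0.060 in vehicle and -0.22, -0.15 and -0.43 in phenolphthalein. None of these markers passed the threshold (0 of 19 and 0 of 17, limma). At an unadjusted p under 0.05, 7 lymphocyte markers were lower and 0 higher, and 11 macrophage markers were lower and 1 higher. Of all items, 54.2% were below 0, and 4.96% were lower and 3.91% higher at that unadjusted p. Cd163 did not pass the filter, while Cd68 stood at 1.34 in vehicle and 0.78 in phenolphthalein, and Cd3d at 0.15 and -0.24. Mrc1, the macrophage mannose receptor, had the largest difference of its list and went the other way, from -2.41 to -1.31 with groups apart, and Cd14 and Itgam also had higher means. In phenolphthalein the T, NK and B cell scores had the same order over the arrays as the member scores, and both leukocyte scores were highest in replicate 2, as the member score was. In vehicle both leukocyte scores were highest in replicate 2, where the member score was lowest. The part of leukocytes in the values of the replication genes was not tested. Erythroid markers had a median of -0.14, proximal tubule markers -0.099, loop, distal and collecting duct markers -0.0013, endothelial markers 0.018, fibroblast and mural markers 0.063, podocyte markers 0.091 and liver markers 0.43. The liver score was 0.74, -0.023 and -0.72 in vehicle and -0.26, 1.25 and 0.028 in phenolphthalein. It was highest in phenolphthalein replicate 2, the treated array nearest to vehicle in Mcm3 and Gins1, and its part in the values of the members was not tested.

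**Figure D5:**
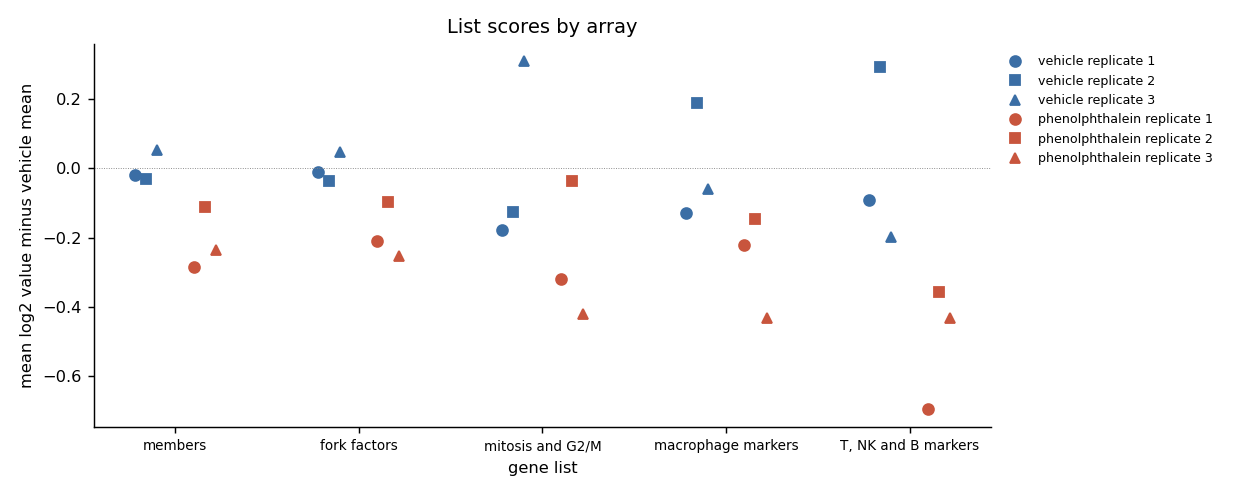
Mean over each list of the log2 value minus the vehicle mean of the gene, by array; blue is vehicle, red is phenolphthalein, and marker shapes give the replicate. The members, the fork factors and both leukocyte lists have separate groups, and the mitosis score overlaps. Both leukocyte scores peak in vehicle replicate 2.

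Within the groups, members varied together to a limited degree. After the group mean of each gene was removed, Pearson's r over the 6 arrays averaged 0.20 over the 36 pairs of members and was above 0 for 25 of them, against an average of 0.0088 over pairs of all items. These arrays share slides, and the group means take up part of the freedom, so the values are a description. Mcm3 and Gins1 were the closest pair, at 0.97, and Gins2 ran against Mcm4 at -0.94. The mitosis genes averaged 0.66 over their own pairs.

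The genes outside the members whose values over the 6 arrays were most like the members' mean profile were Csn1s1, a casein gene (r = 0.992), Dgki, a diacylglycerol kinase (0.990), Cst7, a cystatin of leukocytes (0.987), and Mgst3, a microsomal glutathione transferase (0.984). They were among the 5 highest of 12243 named genes, and the profile itself holds the difference between the groups. Values of r this high are the top picks from many genes over 6 arrays, so they are a description only. Dgki was also dim, with a vehicle mean of -5.52.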

How the data were processed

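Arrays were scanned and read with Agilent Feature Extraction 10.7.1.1, per the file headers (10.7 per the submitters' processing notes). In the deposited scanner files each spot has an intensity, background-subtracted and detrended within each array and not normalized between arrays, per the file headers. The deposited value table holds a linear ratio. Set against the scanner files, each column was the intensity over the array's 75th percentile, and each matched another replicate of the same group. Which replicate name is right is unsettled. It served as an alternative. No scale or centring was stated in the sources used here.

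Values are the log2 ratio of the intensity to the array's 75th percentile, over 61657 probes without control spots, with outlier spots set to missing. Of these probes 64.8% to 72.1% per array were well above background, and 0 were saturated. RefSeq accessions in a GRCr8 gene table named 27460 probes and left 34197 unnamed. The array is annotated on another build, so no probe coordinates are given. Genes were taken at the tested probe with the highest mean, and member probes also singly. limma 3.58.1 in R 4.3.3 (lmFit, eBayes with an intensity trend, Benjamini-Hochberg over 34417 items) compared the groups. It was checked on simulated data. SEs are limma's, and the 3 arrays per group limit the precision.

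The members and lists were chosen with earlier results of these data known. Named genes were all members, up to 4 genes of each replication or cell cycle list by smallest p, and the 5 genes with the most similar profile, provisional names left out. Some genes these rules picked are not reported here. Other genes, among them tissue and leukocyte markers, were named after their values were seen. Alternatives were normexp on the median spot signal (offset 50) in place of the planned mean spot signal, quantile normalization, median centring, other filters, outlier spots kept, the median over probes, no intensity trend, slide and replicate blocks, the value table, and each array left out.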

Additional observations from a re-analysis of the deposited data

How the results depend on the processing

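Over the 17 other settings, 144 of 153 differences of single members kept their sign and moved by less than the replicate SD. Some settings could not move a member's difference here, among them no intensity trend, the replicate block and outlier spots kept. The value table holds the same ratio, and the other filters left the members as they were. The count is therefore not a measure of how robust the differences are. Without 1 array, 0 to 1 items were higher and 0 to 1 lower at an adjusted p below 0.05 (limma); 1133 to 1693 were lower and 889 to 1485 higher at an unadjusted p under 0.05. The count was 1133 without vehicle replicate 3 and 889 without vehicle replicate 2. The 9 members then had 6 to 9 lower values and a median of -0.24 to -0.12. The median over probes gave -0.35 for the members. The middle member was then Mcm6, unchanged at -0.35, with Mcm4 at -0.39 in place of -0.13. Signs turned for Mcm7, at 0.024 with normexp, 0.0026 with quantile normalization, 0.0052 with median centring and -0.062 to 0.057 without 1 array, for Pcna (-0.091 to 0.0042 without 1 array) and for Gins2 (-0.13 to 0.26 without 1 array). The licensing list was at 0.029 with normexp and -0.041 to 0.064 without 1 array, and the list of helicase activation at 0.015 with quantile normalization and -0.075 to 0.0066 without 1 array. With the median over probes, Cdc6 was at 0.083, Rrm1 at 0.036 and Cdkn1a at 0.57. The cause of the turned signs and of the changed counts was not tested, and the fits without 1 array also rest on fewer arrays. With all arrays kept, the median of all items lay between -0.049 (no filter) and -0.0047 (normexp).

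Deviations from the group means correlated at -0.0061, -0.015 and 0.025 between rats of the same number, so the numbers are not taken as pairs. With the replicate block, 0 items were higher and 0 lower at the threshold (limma), and 1594 were lower and 1316 higher at an unadjusted p under 0.05. In that fit 8 members were lower, with a median of -0.14. Every number occurs in both groups, so this block cannot change a member's difference, and these member values repeat the main fit. Signal limits the dimmest probes of Mcm3, Mcm4 and E2f1 and the third probe of E2f1, which were not well above background on every array.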
